A study of Mus musculus with 28 samples.

Results

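The loci of the 4 myogenic regulatory factors, Myod1, Myf5, Myf6 and Myog, were followed through a conversion of mouse fibroblasts towards muscle progenitors and in satellite cells, the stem cells of adult skeletal muscle. Their members were chosen by position alone, as every accessible peak overlapping 1 of 3 windows of the mm9 mouse genome: chr7:53530000-53740000 for Myod1, chr10:106780000-107080000 for Myf5 and Myf6 together, and chr1:136090000-136290000 for Myog. Merging overlapping peaks of the libraries gave 127 regions in these windows, of 255567 genome-wide: 32 around Myod1, 51 around Myf5 and Myf6, and 44 around Myog. That the genes lie inside these mm9 windows was taken from the windows' names and was not checked against an mm9 annotation. In the RefSeq gene order of the later assembly GRCm38.p6, Myod1 stands between Otog and Kcnc1, Myf5 and Myf6 are each other's neighbours between Lin7a and Ptprq, and Myog stands between Adora1 and Ppfia4.

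The fibroblasts came from embryos of embryonic day 13.5 and carried Rosa-rtTA, the doxycycline-responsive MyoD transgene Col1a1-tetO-MyoD, and the reporter Pax7-nGFP, which marks cells expressing the satellite cell factor Pax7. The conversion groups, all named MEF14, received doxycycline with small molecules (Dox+FRG, FRG being read as the initials of forskolin, RepSox and the GSK3 inhibitor) for 2, 4, 6 or 8 days, and further Dox+FRG groups labelled GFP were taken at days 8 and 10. Per the labels' protocols the conversion medium held forskolin at 5 uM, RepSox at 5 uM, the GSK3 inhibitor CHIR99021 at 3 uM, doxycycline at 2 ug/ml and basic FGF at 10 ng/ml, and the medium without the small molecules kept doxycycline and basic FGF. Doxycycline alone (Dox) was sampled at days 4 and 8, the small molecules alone (FRG) at day 8, and untreated fibroblasts at day 0. That the FRG group received no doxycycline was read from its label, since its medium was not described separately. The FRG and day 0 fibroblasts carried the transgenes too. A second set named MEF10 was sampled at day 6 as MyoD+FRG and as MN+FRG, and the labels define neither MN nor the difference between MEF10 and MEF14. Activated and quiescent satellite cells came from adult Pax7-nGFP mice of 10 to 12 weeks, for which the labels name no MyoD transgene and do not say how activation was brought about. Each of the 14 groups had 2 libraries, and the labels do not say whether they were separate cultures or animals. The p-values therefore take single libraries as units, whose differences could be technical. The tests also pool groups of several days or treatments, so the spread they use includes differences between conditions. Libraries of the same group may not be independent units. Groups without a GFP label are called unsorted.

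The 4 factors are basic helix-loop-helix proteins that bind the E-box, the sequence CANNTG, as partners of E proteins and switch on muscle genes. Myf5 and Myod1 act first and commit cells to the muscle lineage. Myog, which MyoD activates, drives terminal differentiation, and Myf6, also called Mrf4, is abundant in mature fibres and can also act early. Quiescent satellite cells hold Myf5 transcripts and little MyoD protein, and MyoD protein appears on activation. Both Myod1 and the linked Myf5 and Myf6 genes are known to be regulated by enhancers spread over long stretches beside the genes.

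Promoter sequences are shown because the induced factor binds E-boxes, and Myog is its classical target. RefSeq promoters of GRCm38.p6, 250 bases before to 50 after the gene start, were at hand for 2 of the 4 members, Myf5 at chr10:107486085-107486384 on the minus strand and Myog at chr1:134289754-134290053 on the plus strand. Both are written from 5′ to 3′ with each CANNTG in capitals.
Myf5 promoter: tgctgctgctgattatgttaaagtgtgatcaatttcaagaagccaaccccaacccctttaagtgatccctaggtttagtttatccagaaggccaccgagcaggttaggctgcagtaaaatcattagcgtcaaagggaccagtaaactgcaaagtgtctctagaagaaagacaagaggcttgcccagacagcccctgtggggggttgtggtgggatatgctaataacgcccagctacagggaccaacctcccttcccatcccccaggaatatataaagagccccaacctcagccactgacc
Myog promoter: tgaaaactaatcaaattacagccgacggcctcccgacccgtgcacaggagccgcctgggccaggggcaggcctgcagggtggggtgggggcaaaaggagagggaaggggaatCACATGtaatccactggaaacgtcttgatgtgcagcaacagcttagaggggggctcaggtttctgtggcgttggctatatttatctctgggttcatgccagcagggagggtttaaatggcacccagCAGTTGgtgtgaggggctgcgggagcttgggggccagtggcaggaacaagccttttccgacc
The Myog promoter held 2 E-boxes, cacatg at bases 113 to 118 and cagttg at bases 239 to 244, and the Myf5 promoter held none, so it has no capitals. Among 32851 mouse promoters of the same length, searched on both strands, 72.3% held at least 1 CANNTG, with a median of 1. The variants CAGCTG and CAGGTG, each also a CANNTG, were in neither promoter and in 16.3% and 20.2% of all promoters. The Myf5 promoter held TATAAA at bases 271 to 276, as did 13.6% of promoters at some position. The sequence TCAGGTTTC, also searched, was in the Myog promoter at bases 167 to 175, not in the Myf5 promoter, and in 0.429% of all promoters. The MEF2 consensus was searched as YTAWWWWTAR, Y being C or T, W being A or T and R being A or G. In this strict form it matched neither promoter and matched 3.19% of all. The Myog promoter holds ctatatttat, which departs from that form in its last base alone, and near matches were not counted. These are matches of letters, and they were not placed on the mm9 regions described here.

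The deposited lists held 37301 to 134997 peaks per library, with no height or score and no read number, so sequencing depth is unknown and a missing peak may lie just under a caller's threshold. Because list lengths differed between groups, the main measure was the number of peaks in a window per 100000 peaks of that list, called peak density below. The most common peak width of a list was between 61 and 500 bp. It was 61 and 63 bp in the FRG lists and 78 to 88 bp in the Dox lists. In the day 0, Dox+FRG, GFP and satellite cell lists it was 153 to 205 bp. The FRG and Dox lists were also longer than all of these. In comparisons of FRG or Dox lists with those others, treatment and the making of the lists cannot be told apart. The list of MEF10 MyoD+FRG replicate 2 stood apart, with a median width of 722 bp and peaks of up to 202465 bp, and it entered no test. A window difference was called where its p, adjusted by Benjamini-Hochberg over the 9 window tests, was under 0.05.

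Around Myod1, MEF14 fibroblasts had few peaks without doxycycline and many with it from day 4 on. Day 0 libraries had 5 and 4 peaks in the window. The Dox+FRG libraries of day 2 had 8 and 4, those of day 4 had 17 and 17, those of day 6 had 15 and 20, and those of day 8 had 20 and 17. Dox alone gave 23 and 21 peaks at day 4 and 24 and 25 at day 8. GFP libraries had 13 and 11 at day 8 and 18 and 15 at day 10. FRG alone at day 8 gave 6 and 7 peaks, although its lists were the longest of the series. In satellite cells there were 19 and 23 peaks when activated and 13 and 10 when quiescent, and MEF10 libraries had 9 and 23 in MyoD+FRG and 9 and 9 in MN+FRG. The MEF14 libraries with MyoD induced from day 4 on lay above every day 0 and FRG library in the plain number of peaks, whatever the list length. At day 2 a library with 4 peaks stood at the day 0 level. Whether more cells carried an accessible site or each cell carried more accessible sites cannot be told apart in these bulk libraries.

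The peak density averaged 24.4 ± 6.71 per 100000 in the MyoD-induced MEF14 libraries (SD, n = 16) and 5.67 ± 1.11 in the day 0 and FRG libraries (SD, n = 4), a ratio of 4.29. By libraries without doxycycline, only these day 0 and FRG libraries are meant below, not the satellite cells. The lowest induced library, of Dox+FRG day 2, had 8.69 and the highest without doxycycline 7.07, so the groups did not overlap. The difference of 18.7 passed a two-sided exact permutation test with p = 0.000206, the smallest that test allows, and an adjusted p of 0.00186. With plain peak numbers the difference was 11.2 peaks with an adjusted p of 0.0130 in the exact permutation test, and with only peaks wider than their list's most common width it was no longer called, with an adjusted p of 0.365.

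**Figure D1:**
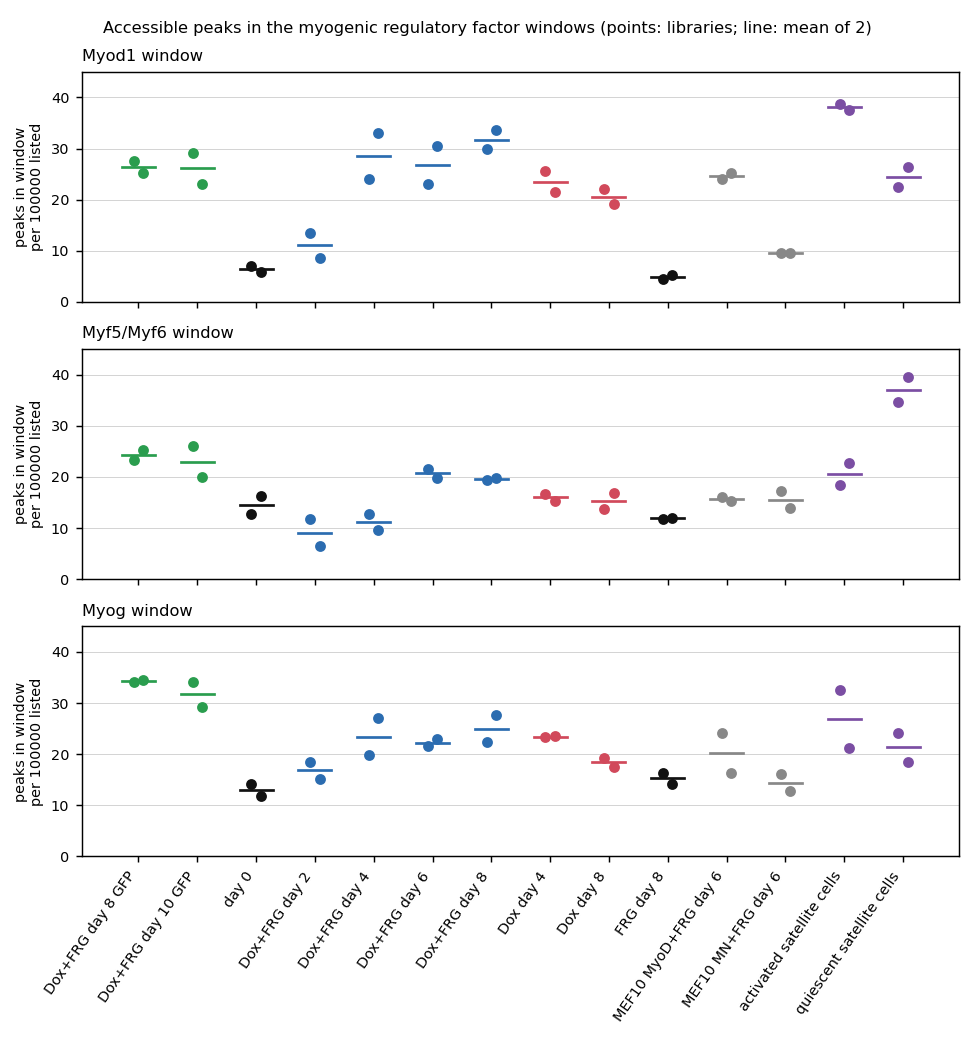
Peaks in the Myod1, Myf5/Myf6 and Myog windows per 100000 peaks of the list, for the 14 groups. Each point is 1 library and each line the mean of 2. The Myod1 panel shows the day 0 and FRG points under 7.07 and every MyoD-induced MEF14 point above them, the Myf5/Myf6 panel shows quiescent satellite cells highest, and the Myog panel shows the GFP groups highest.

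Across the time course of day 0 and unsorted Dox+FRG, 10 libraries in all, the Myod1 density increased with day, with r = 0.89 and rho = 0.84 (permutation p of 0.00137 and 0.00481, adjusted over the 3 windows 0.00411 and 0.00722). The relation held when day 0 was left out (r = 0.78, permutation p = 0.0217) and when day 8 was left out (r = 0.87, permutation p = 0.0104). The step was between days 2 and 4, where the mean went up to 28.5 ± 6.36 at day 4 after 11.0 ± 3.33 at day 2 (SD, n = 2 each), and the later means of 26.8 ± 5.22 at day 6 and 31.7 ± 2.65 at day 8 lay within that spread.

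Ordered by mean density, activated satellite cells came first with 38.1 ± 0.890, followed by unsorted Dox+FRG day 8. The other groups with induced MyoD of day 4 or later, both GFP groups, MEF10 MyoD+FRG and quiescent satellite cells formed an unbroken run down to Dox day 8 with 20.6 ± 2.11. Below them stood Dox+FRG day 2, MEF10 MN+FRG with 9.64 ± 0.0470, day 0 with 6.50 ± 0.807 and FRG with 4.85 ± 0.571 (SD, n = 2 each). Of the 13 neighbouring pairs in this order, 4 did not overlap: activated satellite cells above Dox+FRG day 8, Dox day 8 above Dox+FRG day 2, MN+FRG above day 0, and day 0 above FRG.

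Neither the added small molecules nor the GFP label gave a Myod1 density difference that passed the test. Dox+FRG at days 4 and 8 averaged 30.1 ± 4.40 and Dox at the same days 22.1 ± 2.68 (SD, n = 4 each), which gave an exact permutation p of 0.0571 and an adjusted p of 0.103. In plain peak numbers the mean difference was -5.5 peaks, so the direction depends on the scaling to list length. GFP libraries averaged 26.3 ± 2.69 (SD, n = 4) and unsorted Dox+FRG libraries 24.5 ± 9.22 (SD, n = 8), with an exact permutation p of 0.756 and an adjusted p of 0.850.

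Single regions show where the Myod1 window gained peaks. A region counts as gained when both libraries of the named group and neither of the other called it, and as lost the other way round. An exact test of 2 libraries against 2 cannot give a p below about 0.33, so these counts are descriptions. Dox+FRG day 8 against day 0 gained 14 of 22 Myod1 regions, or 63.6%, where 14.5% of all regions called in any of the 4 libraries were gained, and lost 2, where 21.9% of all were lost. Dox day 8 against day 0 gained 18 of 24 regions (29.3% genome-wide) and lost 1 (4.84%). FRG day 8 against day 0 gained 2 of 7 (33.1% genome-wide) and lost 0 (3.48%). Relative to day 0 the Myod1 window thus gained a larger share than the genome in both doxycycline groups, and not in the FRG group, where its share of 28.6% lay near the genome's. All these comparisons share the day 0 libraries.

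Of the 14 regions gained by Dox+FRG day 8, 1 was first called in both libraries on day 2, 12 on day 4, 0 on day 6 and 1 on day 8. Days of first call were counted in the windows alone, so no genome-wide share stands beside them here or at the other loci. Whether this timing is particular to these loci was not tested. On the map, 11 of the 14 lay on the lower-coordinate side of the middle region chr7:53631654-53634651 and 3 on the higher side, where the window's regions number 16 and 15. The region first called at day 2, chr7:53570125-53572689, at -61.7 kb from that middle region, was in all 16 MyoD-induced libraries, all 4 satellite cell libraries and no day 0 or FRG library. Further regions at -36.1 kb, chr7:53596896-53597177, and at -24.4 kb, chr7:53608616-53608952, were each called in 23 of 28 libraries. Those 2 regions were in 15 of 16 induced libraries, all satellite cell libraries and all MEF10 libraries, with no day 0 or FRG call. The regions at -61.7, -36.1 and -24.4 kb were chosen in part by that pattern of calls. Negative distances run towards lower coordinates.

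A pattern picked after its values were seen sums this up. Regions called in all 10 unsorted Dox+FRG day 4 to 8 and Dox libraries, and in no day 0 or FRG library, made up 12 of the 30 Myod1 regions called in any of these, against 2.5% of all regions. The same pattern held 1 of 41 Myf5/Myf6 regions and 6 of 39 Myog regions.

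**Figure D2:**
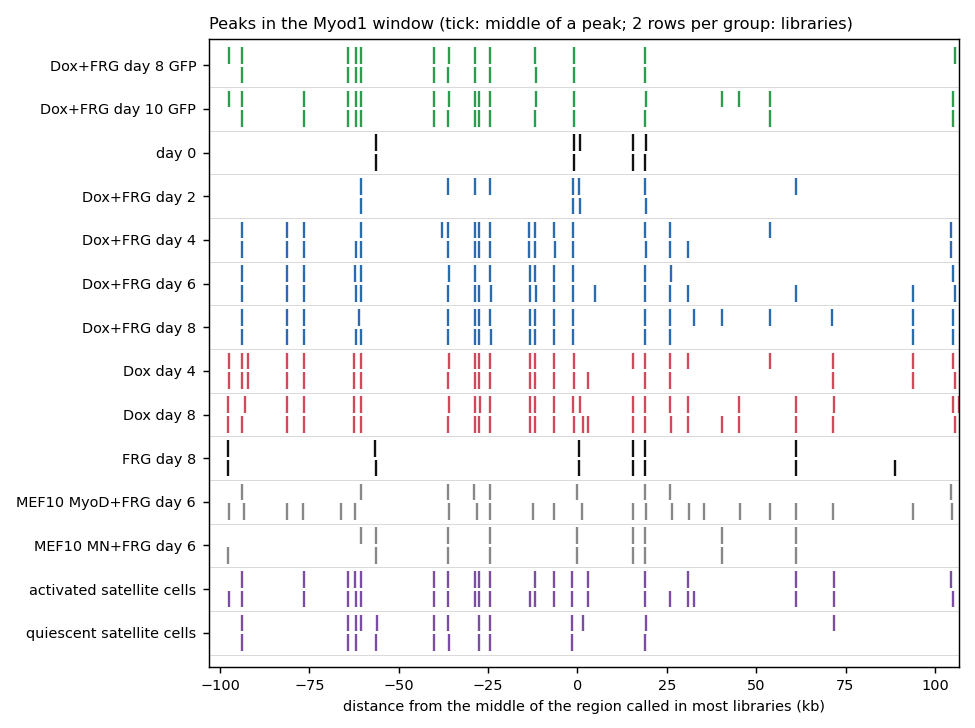
Peaks of every library in the Myod1 window, each tick the middle of a peak, against distance in kb from the middle of the region called in most libraries, with 2 rows per group for its libraries. Day 0 and FRG rows hold 4 to 7 ticks each, rows of Dox+FRG day 4 to 8 and Dox hold 15 to 25, and the regions at -64.1 and -40.1 kb are ticked in the GFP and satellite cell rows.

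Some Myod1 regions were called in GFP cells and not in the unsorted culture, and others the other way round. The patterns counted here were chosen after their values were seen. Regions in all 4 GFP libraries and no unsorted Dox+FRG library numbered 2 of 28 (1.08% of all regions): chr7:53568911-53569150 at -64.1 kb and chr7:53592893-53593164 at -40.1 kb. Both were also called in all 4 satellite cell libraries and in no Dox, FRG or day 0 library. The first was also called in MEF10 MyoD+FRG replicate 2, the list with the wide peaks. The reverse, all 6 unsorted Dox+FRG libraries of days 4 to 8 and no GFP library, held 4 of 28 (2.9% of all regions), at -81.3, -13.4, -6.5 and 26 kb. All 4 of these were called in the 4 Dox libraries as well. The one at -6.5 kb, chr7:53626501-53626809, was also in both activated satellite cell libraries and in no quiescent one. At day 8, GFP against unsorted Dox+FRG gained 2 Myod1 regions (3.58% genome-wide) and lost 7 of 23 (13.4% genome-wide), and at day 10 GFP cells had 2 of those 7, at -76.5 and -27.5 kb, in both libraries. Dox+FRG day 8 against Dox day 8 gained 1 Myod1 region (1.39% genome-wide) and lost 5 of 26 (28.4% genome-wide). GFP cells at day 10 against day 0 gained 12 of 19 Myod1 regions (18.2% genome-wide) and lost 2 (21.9%).

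Day 0 and FRG libraries held few of the Myod1 regions of activated satellite cells. Of the 18 Myod1 regions called in both activated libraries, 13 and 13 were called in Dox+FRG day 10 GFP libraries, 13 and 12 in unsorted Dox+FRG day 8, 15 and 16 in Dox day 8, 3 and 3 in FRG day 8, and 2 and 2 at day 0. Over the whole genome day 0 libraries held 68.7% and 67.8% of the regions of activated cells and FRG libraries 73.9% and 73.5%, beside shares of 11.1% in each day 0 library and 16.7% in each FRG library for these 18 Myod1 regions. The induced libraries lay near or below their own genome-wide shares. Day 10 GFP libraries held 72.2% each at Myod1 beside 71.2% and 72.3% genome-wide, unsorted Dox+FRG day 8 libraries 72.2% and 66.7% beside 77.7% and 69.2%, and Dox day 8 libraries 83.3% and 88.9% beside 91.8% and 94.5%. Activated against quiescent cells gained 8 Myod1 regions of 23 (17.5% genome-wide) and lost 1 (10.8% genome-wide). The 8 included -76.5, -28.8, -11.8 and -6.5 kb, and the 1 lost region, chr7:53576606-53577068 at -56.3 kb, was also called in both libraries of day 0, FRG and MEF10 MN+FRG and in no induced library. Of the 9 regions called in both libraries of both states, day 10 GFP libraries held 9 and 9, day 8 GFP libraries 8 and 8, unsorted Dox+FRG day 8 libraries 7 and 7, and day 0 libraries 2 and 2. Genome-wide, such regions were held at 92.5% and 92.9% by day 10 GFP, 86.2% and 84.4% by day 8 GFP, 90.8% and 86.2% by unsorted day 8, and 84.4% and 83.8% by day 0, so that of these groups day 0, with 22.2% at Myod1, stood furthest from its share. The 2 regions of day 0 are the middle region and chr7:53651555-53652484 at 18.9 kb, the regions called in all 28 libraries.

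The middle region was pieced together from peaks that do not all overlap each other. It spans 2998 bp, and the peaks of satellite cells covered only its first 189 bp, chr7:53631654-53631842, and, in quiescent replicate 1, chr7:53634467-53634646 near its other end. The 2624 bp between, chr7:53631843-53634466, were bounded by these satellite cell peaks, so by construction the 4 satellite cell libraries held no covered base there. Every fibroblast-derived library covered some of this stretch. Peaks there covered 822 and 692 bp in day 10 GFP libraries, 180 and 169 bp in unsorted Dox+FRG day 8, 1439 and 801 bp in Dox day 8, 1941 and 1885 bp in FRG day 8, and 874 and 667 bp at day 0. The MEF10 libraries covered 1737 and 2624 bp in MyoD+FRG and 1461 and 1418 bp in MN+FRG. The 2624 bp came from MyoD+FRG replicate 2, the list with the wide peaks, where 1 peak of 6398 bp spanned the region. The covered stretch was thus longer in both FRG libraries, without doxycycline, than in any induced MEF14 library. Genome-wide the FRG lists were also the longest and held 42643 and 42714 peaks wider than their most common width. The other MEF14 lists held at most 26838 such peaks. Whether this accounts for the longer stretch was not tested. The protocols describe 1 fibroblast genotype, with the MyoD transgene, for all fibroblast groups, so reads from its copy could have been placed on Myod1 exons, and their part in these peaks was not tested. The RefSeq gene length of Myod1 is 2619 bp in GRCm38.p6, close to the stretch between, and no exon was placed on mm9 here. The upper end of that stretch rests on 1 peak of quiescent replicate 1. All other regions of the window lie outside this stretch.

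**Figure D3:**
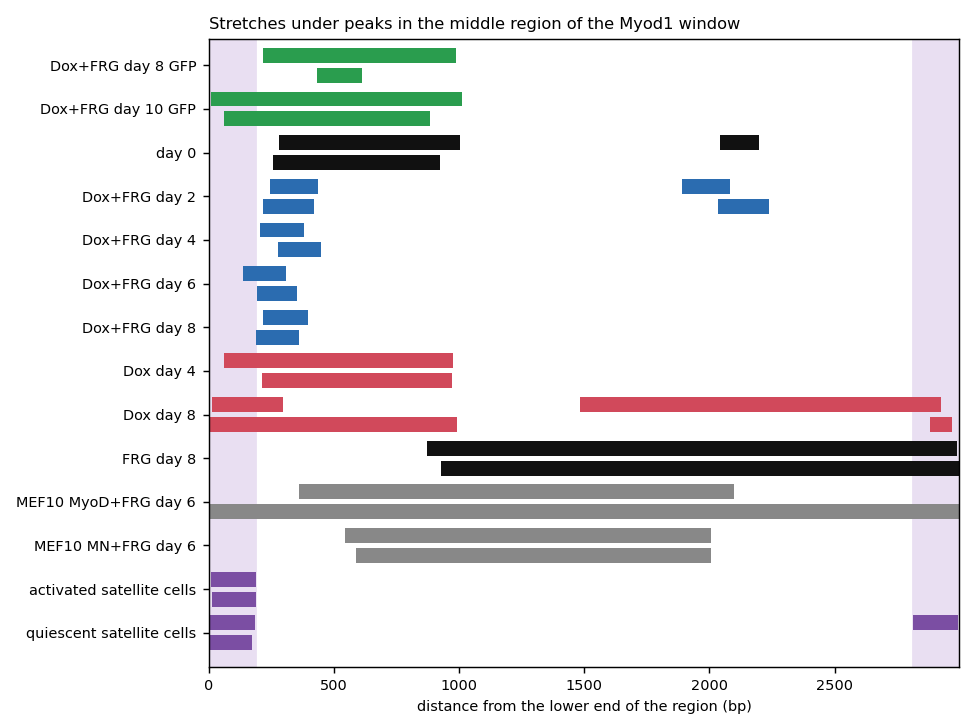
Stretches under peaks in the middle region of the Myod1 window, in bp from its lower end, with 2 bars per group for its libraries and shading over the stretches that satellite cell peaks cover. Satellite cell bars stay inside the shading, which was drawn from them. Every other library has a bar between the shaded stretches, the FRG bars covering 1941 and 1885 bp there.

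Myf5 and Myf6 share a window, and its clearest feature was in quiescent satellite cells. Activated libraries had 9 and 14 peaks there and quiescent libraries 20 and 15, although the quiescent lists, of 57859 and 37910 peaks, were not longer as a group than the activated lists of 49072 and 61400. In the time course there were 9 and 11 peaks in day 0 libraries, 7 and 3 in those of Dox+FRG day 2, 9 and 5 in day 4, 14 and 13 in day 6, and 13 and 10 in day 8. GFP libraries had 11 and 11 at day 8 and 16 and 13 at day 10. Dox libraries had 15 and 15 at day 4 and 15 and 22 at day 8, and FRG libraries 16 and 16. Unlike at Myod1, FRG and day 0 counts lay among those of the induced groups.

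By mean density, quiescent satellite cells stood alone at the top with 37.1 ± 3.54, their lower library at 34.6 and the next group, GFP day 8, at 24.4 ± 1.35. Day 10 GFP had 23.0 ± 4.22, Dox+FRG day 6 20.7 ± 1.24, activated satellite cells 20.6 ± 3.15 and Dox+FRG day 8 19.6 ± 0.258. Lowest were FRG with 11.9 ± 0.109, Dox+FRG day 4 with 11.2 ± 2.12 and Dox+FRG day 2 with 9.12 ± 3.68 (SD, n = 2 each). Of 13 neighbouring pairs 3 did not overlap: quiescent cells above GFP day 8, Dox+FRG day 8 above Dox day 4, and day 0 above FRG.

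The Myf5/Myf6 density difference between induced and uninduced libraries did not pass the test. Induced libraries averaged 17.4 ± 5.55 (SD, n = 16) and libraries without doxycycline 13.2 ± 2.09 (SD, n = 4), with an exact permutation p of 0.161 and an adjusted p of 0.242. Over the central part of the window alone, 1 of 3 equal parts, the difference was called, at 4.90 with an adjusted p of 0.0116. GFP libraries averaged 23.7 ± 2.67 (SD, n = 4) and unsorted Dox+FRG libraries 15.2 ± 5.67 (SD, n = 8), a difference of 8.52 with an exact permutation p of 0.0222 and an adjusted p of 0.05, which is at the threshold and not under it. It passed by covered length (adjusted p = 0.0182, exact permutation test) and with any 1 of the 4 unsorted libraries of days 6 and 8 left out. It did not pass in plain peak numbers (3.5 peaks, adjusted p = 0.248), over the central part of the window (3.37, adjusted p = 0.182) or with only wide peaks (25.7, adjusted p = 0.0545), all by exact permutation test. Against the unsorted libraries of days 6 and 8 alone, a choice made after seeing the data, the difference was 3.53 with an exact permutation p of 0.0571 and an adjusted p of 0.103. Dox+FRG averaged 15.4 ± 4.99 and Dox 15.7 ± 1.41 (SD, n = 4 each), with an exact permutation p of 0.943. In plain peak numbers this difference was -7.5 peaks, with an exact permutation p of 0.0286 and an adjusted p of 0.0514. Density against day gave r = 0.64 (permutation p = 0.0505) and rho = 0.57 (permutation p = 0.0986), which did not pass. Leaving out day 0 gave r = 0.86 (permutation p = 0.0116) and leaving out day 8 gave r = 0.49 (permutation p = 0.222), so the relation depends on the days kept.

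The Myf5/Myf6 regions gained during conversion were first called in both libraries at days 4 and 6. Dox+FRG day 8 against day 0 gained 6 of 22 regions and lost 6, shares of 27.3% each beside 14.5% gained and 21.9% lost genome-wide. None of the 6 gained regions was called in both libraries at day 2, 2 first at day 4, and 4 first at day 6. The difference in timing from Myod1 was not tested. The region chr10:106999988-107000324, at -52.5 kb from the region called in most libraries, chr10:107052538-107052778, was first called at day 6. It was in both libraries of Dox+FRG day 6, Dox+FRG day 8, both GFP groups and both satellite cell states, in 1 Dox day 4 library, and in no day 0, day 2, Dox+FRG day 4, Dox day 8, FRG or MEF10 library. This made it the 1 Myf5/Myf6 region gained by Dox+FRG day 8 against Dox day 8 (1.39% genome-wide), while 4 were lost (28.4%). At -98.8 kb, chr10:106953722-106953994 was called in 15 of 16 induced libraries and in no day 0 or FRG library, the pattern by which it was chosen.

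Regions lost by Dox+FRG day 8 included chr10:107061283-107061659 at 8.8 kb. Both libraries of day 0 and of Dox+FRG day 2 called it, then 1 of day 4, 1 of day 6, none of day 8 and none of either GFP group. All 4 satellite cell, 4 Dox, 2 FRG and 4 MEF10 libraries called it. The region chr10:106939318-106939581 at -113.2 kb was called in the 2 day 0 libraries and nowhere else. Dox day 8 against day 0 gained 9 of 27 Myf5/Myf6 regions and FRG day 8 against day 0 gained 6 of 21, shares of 33.3% and 28.6% beside 29.3% and 33.1% genome-wide, so neither stood off its background. Those comparisons lost 3 regions each, shares of 11.1% and 14.3% beside 4.84% and 3.48%.

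The GFP cells shared regions with quiescent satellite cells at this locus. Regions chr10:106923773-106924155 at -128.7 kb and chr10:107034195-107034480 at -18.3 kb were called in both libraries of GFP day 8, GFP day 10 and quiescent satellite cells, and in none of the other 22 libraries. They were the 2 of 25 Myf5/Myf6 regions in all GFP and no unsorted Dox+FRG libraries (1.08% of all regions). In all, 6 regions of the window were called in both quiescent and no activated library. Day 10 GFP libraries held 5 and 4 of them, day 8 GFP libraries 4 and 3, unsorted Dox+FRG day 8 libraries 1 and 1, Dox day 8 libraries 1 and 2, FRG libraries 1 and 1, and day 0 libraries 0 and 0. For such quiescent-only regions over the whole genome the shares were 47.6% and 50.2% in day 10 GFP, 33.6% and 29.8% in day 8 GFP, 33.7% and 25.6% in unsorted day 8, 40.8% and 48.2% in Dox day 8, 60.3% and 60.1% in FRG, and 34.8% and 33.3% at day 0. For these 6 quiescent-only regions, then, GFP libraries held a larger share than genome-wide. Unsorted day 8, Dox day 8, FRG and day 0 libraries held a smaller one. The 6 are too few for more than a description. Of all 13 Myf5/Myf6 regions called in both quiescent libraries, all of these groups held a smaller share than genome-wide. Day 10 GFP libraries held 76.9% and 61.5% beside 79.2% and 80.3%, and day 8 GFP libraries 61.5% and 53.8% beside 70.2% and 67.6%.

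Activated satellite cells had more lost than gained regions at Myf5/Myf6, and more gained than lost at Myod1. Activated against quiescent cells gained 1 of 28 Myf5/Myf6 regions (17.5% genome-wide) and lost 6, a share of 21.4% (10.8% genome-wide). The gained one, chr10:106922559-106922891 at -129.9 kb, was called in the 2 activated libraries and nowhere else, and it lies between the regions at -131.0 and -128.7 kb. Regions called in all satellite cell libraries and in no day 0 library numbered 7 of 24 at Myod1, 3 of 32 at Myf5/Myf6 and 1 of 25 at Myog, beside 2.78% of all regions. Over the 3 windows, leaving out activated replicate 1 changed the count gained on activation to 21, and leaving out quiescent replicate 2 changed the count lost to 17, where both libraries of each state gave 12 and 8.

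**Figure D4:**
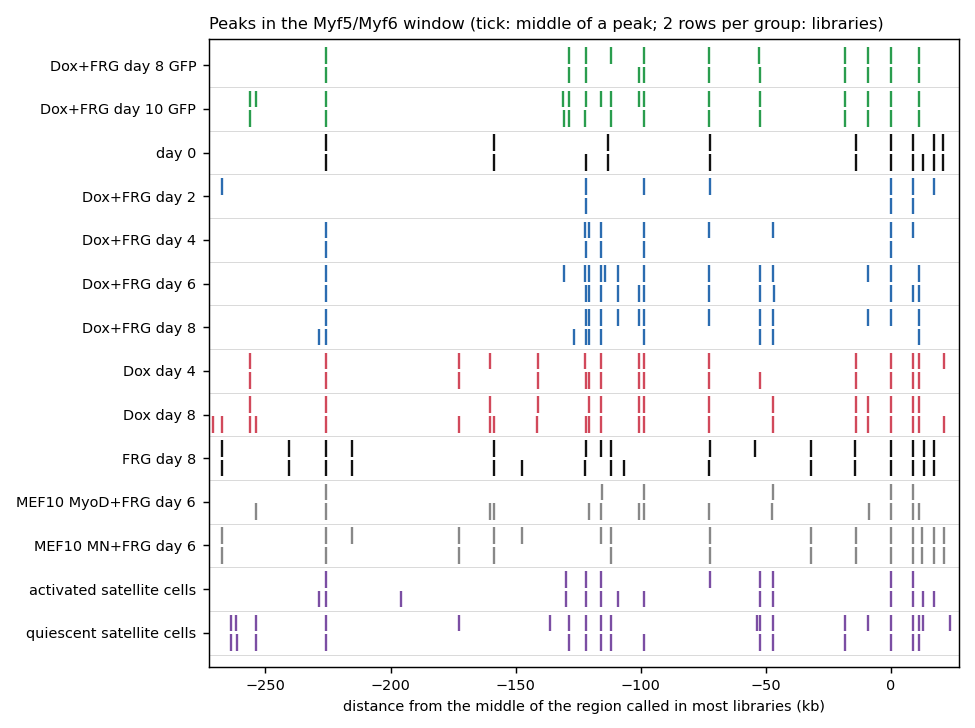
Peaks of every library in the Myf5/Myf6 window, drawn as for Myod1, against distance in kb from the middle of the region called in most libraries. The regions at -128.7 and -18.3 kb are ticked in the GFP and quiescent rows, the region at -52.5 kb from Dox+FRG day 6 on and in satellite cells, and the region at 8.8 kb is missing from Dox+FRG day 8 and GFP rows.

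At Myog, the differentiation gene, peaks were present at day 0 and became denser with MyoD, and densest in the GFP cells. In the time course there were 10 and 8 peaks in day 0 libraries, 11 and 7 in those of Dox+FRG day 2, 14 and 14 in day 4, 14 and 15 in day 6, and 15 and 14 in day 8. GFP libraries had 16 and 15 at day 8 and 21 and 19 at day 10. Dox libraries had 21 and 23 at day 4 and again 21 and 23 at day 8, FRG libraries 22 and 19, activated satellite cells 16 and 13, and quiescent satellite cells 14 and 7. FRG lists thus held as many Myog peaks as Dox lists, which bears on the scaling below.

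Induced libraries averaged 24.4 ± 6.12 per 100000 (SD, n = 16) and libraries without doxycycline 14.1 ± 1.82 (SD, n = 4), a ratio of 1.73 and a difference of 10.3. The exact permutation p was 0.00413 and the adjusted p 0.0124, with the lowest induced library at 15.2 and the highest without doxycycline at 16.3, so the groups overlapped. The call rests on scaling to list length, since plain peak numbers gave a difference of 1.69 with an adjusted p of 0.757. It was also lost against the day 0 libraries alone (difference 11.4, exact permutation p = 0.0261, adjusted p = 0.0588, an alternative added after the data were seen) and with only wide peaks (adjusted p = 0.164). Over day 0 and unsorted Dox+FRG, where list lengths differ less, Myog density increased with day with r = 0.83 and rho = 0.86 (permutation p of 0.00392 and 0.00300, adjusted 0.00588 and 0.00722). Leaving out day 0 gave r = 0.67 (permutation p = 0.0698), so the relation rests in part on day 0, and leaving out day 8 gave r = 0.81 (permutation p = 0.0134).

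GFP libraries averaged 33.0 ± 2.49 at Myog (SD, n = 4) and unsorted Dox+FRG libraries 21.9 ± 4.20 (SD, n = 8), a difference of 11.1 and a ratio of 1.51. Every GFP library lay above every unsorted one, the lowest GFP library at 29.3 and the highest unsorted one at 27.7. The exact permutation p was 0.00202, the smallest this test allows, and the adjusted p was 0.00909. Since GFP cells were taken at days 8 and 10 and unsorted cells from day 2 on, the comparison was repeated with unsorted days 6 and 8 alone, which gave a difference of 9.34, an exact permutation p of 0.0286, the smallest that design allows, and an adjusted p of 0.0857. By covered length per megabase of list the difference was not called (exact permutation test, adjusted p = 0.552), and with only wide peaks its sign turned to -7.24. Dox+FRG averaged 24.2 ± 3.82 and Dox 20.9 ± 2.97 (SD, n = 4 each), which did not pass with an exact permutation p of 0.229 and an adjusted p of 0.294, and plain numbers had the opposite sign, at -7.75 peaks.

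In the order of mean Myog density, GFP day 8 with 34.3 ± 0.331 and GFP day 10 with 31.7 ± 3.43 came first, then activated satellite cells with 26.9 ± 8.08. Lowest were FRG with 15.3 ± 1.44, MEF10 MN+FRG with 14.5 ± 2.34 and day 0 with 13.0 ± 1.61 (SD, n = 2 each). Of 13 neighbouring pairs 1 did not overlap, Dox day 4 above Dox+FRG day 6, so the groups grade into one another.

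Some Myog regions were called in induced libraries and in no library without doxycycline. Those named here at -42.8, -11.5 and -25.0 kb were chosen by that pattern, which is therefore no separate finding. Dox+FRG day 8 against day 0 gained 8 of 21 Myog regions, or 38.1% (14.5% genome-wide), and lost 1, or 4.76% (21.9% genome-wide). Of the 8, both libraries first called 3 on day 2, 4 on day 4, 0 on day 6 and 1 on day 8. Distances here run from chr1:136228582-136229846, a region called in all 28 libraries. The regions at -42.8 kb, chr1:136186217-136186539, and at -11.5 kb, chr1:136217392-136217952, were called in all 16 induced libraries, both activated and 1 quiescent library, and in no day 0 or FRG library. The region at -42.8 kb was in both MEF10 groups, and that at -11.5 kb in MEF10 MyoD+FRG and not in MN+FRG. Another of these early regions, at -29.8 kb, chr1:136199154-136199692, was in all 16 induced and all 4 satellite cell libraries, but also in both FRG libraries, and was absent at day 0. At -25.0 kb, chr1:136203986-136204346 was in 15 of 16 induced libraries, both MEF10 MyoD+FRG libraries and no MN+FRG, day 0 or FRG library. The region first called in both Dox+FRG libraries at day 8, at 41.7 kb, was already in 1 library each of Dox+FRG days 4 and 6. It was in both libraries of each GFP group and in all 4 Dox libraries, and in no satellite cell, FRG or day 0 library.

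Dox day 8 against day 0 and FRG day 8 against day 0 gained shares of Myog regions closer to their backgrounds. Dox day 8 against day 0 gained 11 of 29 regions, or 37.9% (29.3% genome-wide), and FRG day 8 gained 7 of 22, or 31.8% (33.1% genome-wide). GFP day 10 against day 0 gained 9 of 27, or 33.3% (18.2% genome-wide), and lost 0 (21.9%). At day 8, GFP against unsorted Dox+FRG gained 1 Myog region (3.58% genome-wide) and lost 2 (13.4%), and Dox+FRG against Dox gained 0 (1.39%) and lost 4 of 25 (28.4%). Leaving out Dox+FRG day 8 replicate 1 or GFP day 8 replicate 2 moved the gain of GFP over unsorted cells in the 3 windows to 8 or 10, where all 4 libraries gave 5. For Dox+FRG against Dox at day 8 the 3 windows gained 4 or 5 without Dox+FRG replicate 1 or 2 and lost 25 without Dox replicate 1, where all 4 libraries gave 2 and 13, and for Dox day 8 against day 0 they lost 8 without day 0 replicate 1, where all gave 5. Of the 12 Myog regions called in both activated libraries, all 6 unsorted Dox+FRG libraries of days 4 to 8 and all 4 Dox libraries held 12. Genome-wide those unsorted libraries held 69.2% to 84.5% of the regions of activated cells and the Dox libraries 87.0% to 94.5%. GFP day 10 held 12 and 11 at Myog (71.2% and 72.3% genome-wide), FRG 6 and 6 (73.9% and 73.5%), and day 0 held 5 and 4 (68.7% and 67.8%). Activated against quiescent cells gained 3 of 21 Myog regions (17.5% genome-wide) and lost 1 (10.8%). The gained ones lay at -49.3, 6.6 and 9.8 kb.

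**Figure D5:**
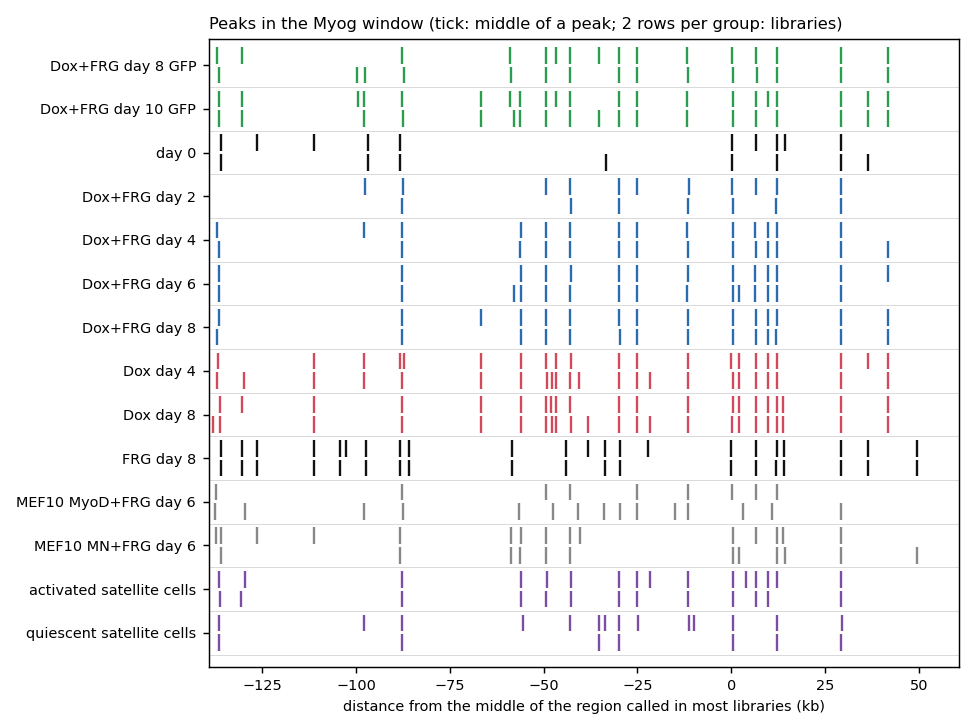
Peaks of every library in the Myog window, drawn as for Myod1, against distance in kb from the middle of a region called in all 28 libraries. The regions at -42.8 and -11.5 kb are ticked in every MyoD-induced MEF14 row and in no day 0 or FRG row, and GFP day 10 rows hold 21 and 19 peaks.

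Regions called in 26 or more of 28 libraries numbered 2 at Myod1, 2 at Myf5/Myf6 and 5 at Myog, of 32, 51 and 44 regions, beside 7.96% of all regions. Regions of 1 library alone numbered 3, 11 and 5, beside 21.9% of all regions. The median region was called in 11 libraries at Myod1, 4 at Myf5/Myf6 and 6.5 at Myog. Called in no day 0 and no FRG library were 25 of 32 Myod1 regions, 30 of 51 Myf5/Myf6 regions and 22 of 44 Myog regions, beside 37.1% of all regions. Of these, 25, 22 and 20 were called in at least 1 MyoD-induced MEF14 library. For these last counts, and for the medians above, no genome-wide value was computed, so they describe the windows alone.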

How the data were processed

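ATAC-seq, which cuts accessible chromatin with a transposase, was run on 60000 cells per library with 13 PCR cycles, per the labels' protocols. The authors used BWA and HOMER with mm9, per the submitters' processing notes. The 28 deposited files give other values than counts: the chromosome, start and end of each peak of 1 library, with no header, score or read number, so peaks appear to have been called per library. Versions, thresholds and read filters were not given in the sources used here. The depth per library is unknown. The lists were used whole. They hold no peaks on chromosome Y (0).

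Starts were taken to count from 0, and coordinates are printed 1-based. Regions were made by merging peaks of 27 lists wherever they shared 1 bp or more. The list of MEF10 MyoD+FRG replicate 2 was left out of the merging for its wide peaks and then placed on the regions. A library called a region if it had a peak there. Window densities (peaks per 100000 listed) were compared between libraries by two-sided exact permutation tests of the difference in means with Benjamini-Hochberg adjustment over 9 tests. Relations with day used permutation tests of 100000 resamples. Python 3.11.15 with numpy 2.4.6, pandas 2.3.3, scipy 1.17.1 and matplotlib 3.10.9 were used, and the counting and tests were checked on simulated lists first. Regions named in the text are those called in at least 26 libraries, in all satellite cell and no day 0 libraries, in 1 satellite cell state alone (up to 5 per window), in no day 0 or FRG library (up to 5 per window), or within 15 kb of a window's middle. From those in no day 0 or FRG library, the ones with the most calls in the 16 MyoD-induced MEF14 libraries were taken. Their pattern of calls is therefore part of how they were chosen. Other regions named, such as those lost by day 8, those called in unsorted and no GFP libraries, and the Myog region at 41.7 kb, were picked after their values were seen. The windows, members and tests were chosen with earlier results of these data known. RefSeq sequences and gene order are of GRCm38.p6, and no coordinate was moved between builds. Alternatives tried were plain peak numbers, covered length, the central 1 of 3 equal parts of each window, wide peaks alone, other merging and overlap rules, a replicate block and each library left out.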

Additional observations from a re-analysis of the deposited data

Results flagged for a closer look

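The MEF10 libraries entered no test and are set here beside the libraries without doxycycline, whose highest densities were 7.07 per 100000 at Myod1 and 16.3 at Myog. At Myod1 the MEF10 MyoD+FRG libraries had 24.1 and 25.2 and the MN+FRG libraries 9.67 and 9.60, all above 7.07. At Myog the MEF10 MyoD+FRG libraries had 24.1 and 16.4, while the MN+FRG libraries had 16.1 and 12.8, both under 16.3. MEF10 MyoD+FRG replicate 2, with the wide peaks, gave the 25.2 and the 16.4. The difference of the MEF10 groups from the MEF14 libraries was not tested.

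At Myf5/Myf6 the difference of Dox+FRG from Dox had opposite signs on the 2 days they share. It was -4.81 per 100000 at day 4, where Dox+FRG had 12.7 and 9.70 and Dox 16.7 and 15.3. It was 4.27 at day 8, where Dox+FRG had 19.4 and 19.8 and Dox 13.8 and 16.8. Every Dox+FRG library lay below every Dox library at day 4 and above at day 8, and the difference between the days was not tested. In plain peak numbers Dox+FRG had 9 and 5 peaks and Dox 15 and 15 at day 4, and 13 and 10 against 15 and 22 at day 8, so that the sign did not turn.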

How the results depend on the processing

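In plain peak numbers, not scaled to list length, Dox+FRG minus Dox turned to -5.5 at Myod1 and -7.75 at Myog and was -7.5 at Myf5/Myf6, GFP minus unsorted to -0.5 at Myod1, and MyoD-induced minus no doxycycline to -1 at Myf5/Myf6 and 1.69 at Myog, the last no longer called. By covered base pairs per megabase, Dox+FRG minus Dox was -16 at Myod1 and 37.4 at Myf5/Myf6, and GFP minus unsorted was 114 at Myf5/Myf6, now called, and 46.6 at Myog, no longer called. In the central part of the windows, GFP minus unsorted was -3.32 at Myod1, Dox+FRG minus Dox was 0.51 at Myf5/Myf6, and 2 Myf5/Myf6 results passed, the induced difference of 4.90 and the correlation with day of 0.875. With only wide peaks, the induced difference lost its call at Myod1 (16) and Myog (22.8), Dox+FRG minus Dox was -3.12 at Myod1 and 2.21 at Myf5/Myf6, and GFP minus unsorted was -7.24 at Myog. Wide peaks alone left over the 3 windows 3 regions gained and 2 lost for Dox+FRG day 8 against day 0, 2 and 1 for GFP day 10, 10 and 1 for Dox day 8, 8 and 1 for FRG, 0 and 4 for Dox+FRG against Dox at day 8, 0 and 2 for GFP against unsorted at day 8, and 1 and 0 on activation. Fewer peaks enter that setting by construction; for the other changes the cause was not tested. Merging all 28 lists or asking for 50% overlap kept all 14 counts within 1.5 times.

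The following alternatives were added after the data were seen. Against unsorted days 6 and 8 alone, GFP cells differed by -2.95 at Myod1, 3.53 at Myf5/Myf6 and 9.34 at Myog, the last no longer called. Against day 0 alone, the induced difference at Myog was 11.4, no longer called.

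Over 91 pairs of groups the correlation of same-numbered deviations ran from -0.183 to 0.107, with a median of 0.000448. With 2 libraries per group and unknown depth, these values cannot settle whether same-numbered libraries were processed together. With the replicate number as a block, GFP minus unsorted at Myf5/Myf6 stayed 8.52 and passed (exact permutation p = 0.0178, adjusted 0.04), and the 11 other window results kept direction and call.

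Leaving out 1 library at a time gave these ranges. At Myf5/Myf6 the correlation with day was 0.581 to 0.774 and passed without day 0 replicate 2 or Dox+FRG day 4 replicate 2. Also at Myf5/Myf6, GFP minus unsorted was 7.29 to 9.74, with adjusted p of 0.0136 to 0.0818, passing without any 1 of the 4 Dox+FRG libraries of days 6 and 8, and Dox+FRG minus Dox was -1.73 to 1.63. GFP minus unsorted at Myod1 was -0.457 to 3.10, negative without Dox+FRG day 2 replicate 2. The called results kept direction and call, at 18.1 to 19.7 (Myod1, induced), 9.53 to 11.0 (Myog, induced), 10.1 to 12.3 (Myog, GFP), and r of 0.854 to 0.959 (Myod1, day) and 0.774 to 0.938 (Myog, day). Counts over the 3 windows were 5 to 8 lost for Dox day 8 against day 0 (8 without day 0 replicate 1), 2 to 5 gained and 13 to 25 lost for Dox+FRG against Dox at day 8 (4 and 5 gained without Dox+FRG replicates 1 and 2, 25 lost without Dox replicate 1), 5 to 10 gained for GFP against unsorted at day 8, and 12 to 21 gained and 8 to 17 lost on activation. Peak lists without read numbers limit all of these, since a library's depth and its list length cannot be told apart.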
